A study of Mus musculus with 6 samples.

Results

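The genes that copy the genome and bring cells from G1 into S phase were examined in mouse primary articular chondrocytes, the cells of joint cartilage, after knockdown of *Sephs1*. The set was a fixed list of 54 gene symbols covering replication licensing, the replication fork and the E2F control of S phase entry. It was matched by symbol, and all 54 were among the 24532 genes listed and among the 14223 genes with a read in every library. The study compared 3 libraries from chondrocytes transfected with negative control siRNA and 3 from chondrocytes transfected with *Sephs1* siRNA. Both groups were chondrocytes of 5-day-old ICR mice. They received 50 nM siRNA for 12 h and fresh medium for 48 h, were transfected 2 times and were kept in 3% oxygen. *Sephs1* encodes selenophosphate synthetase 1, a protein related to the enzyme that makes the selenium donor of selenoproteins. An siRNA lowers its target and does not remove it, so both groups kept *Sephs1* transcripts. *Sephs1* (chromosome 2 from 4881564 to 4910557, mm10) was at 50.7, 44.7 and 44.7 CPM (read counts scaled to library size) in control replicates 1, 2 and 3. Its levels after knockdown were 36.1, 24.9 and 21.5 CPM. The groups did not overlap, and edgeR gave a log2 fold change of -0.76 (standard error 0.19) with an adjusted p of 0.392, or of 0.04 when the replicate number was added to the model as a block.

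Replication begins in G1, when the origin recognition complex, CDC6 and CDT1 load the MCM2-7 helicase onto origins. In S phase the DBF4-dependent kinase CDC7, MCM10, CDC45 and the GINS complex turn the loaded helicase into a moving fork, on which primase, DNA polymerases, the sliding clamp PCNA and its loader RFC work. E2F factors control the transcription of most of these genes, and E2F8 is an atypical member of that family that represses E2F targets later in the cycle. Chondrocytes of neonatal joints still divide, whereas those of adult articular cartilage rarely do.

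Promoter sequence was read for the list, since E2F sites are the known feature that ties these genes together. Windows of 300 bases, from 250 before to 50 after a RefSeq start (GRCm38.p6), matched 44 of the 54 genes. No window was matched for *Prim2*, *Mcm4*, *Rfc2*, *Tipin*, *Gins1*, *Pole*, *Gmnn*, *Gins2*, *Ccne2* and *Gins4*. The windows were searched on both strands for the E2F letters TTTGGCGC, TTTCCCGC, TTTGCCGC or TTTCGCGC, for CCAAT, which the factor NF-Y binds, and for TTTGAA, the core of the CHR element of late cell cycle promoters. Of the 44 genes, 18 (40.9%) held E2F letters, against 4.56% of the 10630 tested genes with a window and 2.6% of all 27025 genes in the promoter table. CCAAT was found in 26 of the 44 (59.1%), against 42.8% of the tested genes, and TTTGAA in 9 (20.5%), against 14.2%. Over all windows of the promoter table, not the list alone, the E2F letters overlapped another of the motifs in 5. A match is a string of letters and does not show that a factor binds there.

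The whole windows of *E2f8* and *Rfc3* are shown because these genes had the smallest p-values of the list, a choice that follows their values. Both read 5′ to 3′ on the minus strand, that of the gene, and the capitals mark the motif matches. The *E2f8* window lies at chr7:48881547-48881846, inside the annotated extent of the gene. It holds ATTGG, the reverse complement of CCAAT, at bases 139 to 143 and TTCAAA, the reverse complement of the CHR letters, at bases 231 to 236, and none of the E2F letters. The *Rfc3* window lies at chr5:151651159-151651458. It holds TTTCGCGC at bases 241 to 248, GCGGGAAA at bases 251 to 258 and ATTGG at bases 22 to 26.
E2f8: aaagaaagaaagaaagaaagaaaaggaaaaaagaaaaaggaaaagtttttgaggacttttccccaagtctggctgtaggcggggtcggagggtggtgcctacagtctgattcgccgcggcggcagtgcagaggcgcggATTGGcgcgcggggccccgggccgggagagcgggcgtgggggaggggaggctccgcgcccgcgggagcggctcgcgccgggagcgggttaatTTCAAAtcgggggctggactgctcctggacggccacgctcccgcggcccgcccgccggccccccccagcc
Rfc3: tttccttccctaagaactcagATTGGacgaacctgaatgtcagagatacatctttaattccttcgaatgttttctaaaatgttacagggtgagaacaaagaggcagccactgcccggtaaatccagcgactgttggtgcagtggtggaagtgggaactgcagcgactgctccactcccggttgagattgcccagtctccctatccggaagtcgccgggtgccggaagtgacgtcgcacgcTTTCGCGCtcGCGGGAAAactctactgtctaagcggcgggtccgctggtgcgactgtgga

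The first E2F match of 8 other genes, with up to 8 bases on each side, is shown to set the same letters side by side across helicase, loading, firing, polymerase, ligase and E2F genes. Capitals mark the match. *Mcm5*, *Mcm6*, *Mcm7*, *Cdc6*, *Gins3*, *Pola1*, *Lig1* and *E2f2* read as follows.
Mcm5 (chr8:75109348-75109371, plus strand): ccaagaacTTTCGCGCcaaaacgt
Mcm6 (chr1:128359800-128359823, minus strand): cgtatgctTTTGGCGCgaaaagtg
Mcm7 (chr5:138172033-138172056, minus strand): ttcgaaccGCGGGAAAcagggtgt
Cdc6 (chr11:98908005-98908028, plus strand): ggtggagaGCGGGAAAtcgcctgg
Gins3 (chr8:95633510-95633533, plus strand): agtgcggcGCGGGAAAgcgagttt
Pola1 (chrX:93632278-93632301, minus strand): atcacaggGCGCCAAAtgcactcc
Lig1 (chr7:13278844-13278867, plus strand): caaagtgcGCGCGAAAtctgtgtg
E2f2 (chr4:136172305-136172323, plus strand): gcatatagTTTGGCGCtaa

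Across the 54 genes, differences between the groups were small, and most pointed to a higher level with *Sephs1* siRNA. The log2 fold change was positive for 42 genes and negative for 12, with a median of 0.12 against 0.01 for all genes tested. Values ran from -0.20 for *Rpa3* to 0.51 for *E2f2*, and the median standard error of a gene was 0.15. *E2f8* alone was higher at an unadjusted p under 0.05 from edgeR, where 4.98% of all genes were, and no gene of the list was lower, where 3.63% of all genes were. None of the 54 was called at an adjusted p under 0.05, where 1 gene of all those tested was higher (0.00703%). *E2f8* was called at that threshold by DESeq2 (adjusted p = 0.0115), as were 1.03% of all genes in the higher direction.

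Replicate numbers in the labels paired the libraries, as judged by their shared deviations, and the fit with these numbers as a block gave more calls. In that fit, 8 of the 54 genes were higher at an unadjusted p under 0.05, against 13.1% of all genes, and none was lower, against 11.2%. They were *Gins2*, *Rfc3*, *Pola1*, *Pole*, *Fen1*, *Lig1*, *E2f1* and *E2f8*. The 8 are 14.8% of the list, so the share is close to that of all genes. *E2f8* was called at an adjusted p under 0.05 (0.0351), as were 0.83% of all genes in the higher direction. The plot of fold changes by role shows where the positive values lay.

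**Figure D1:**
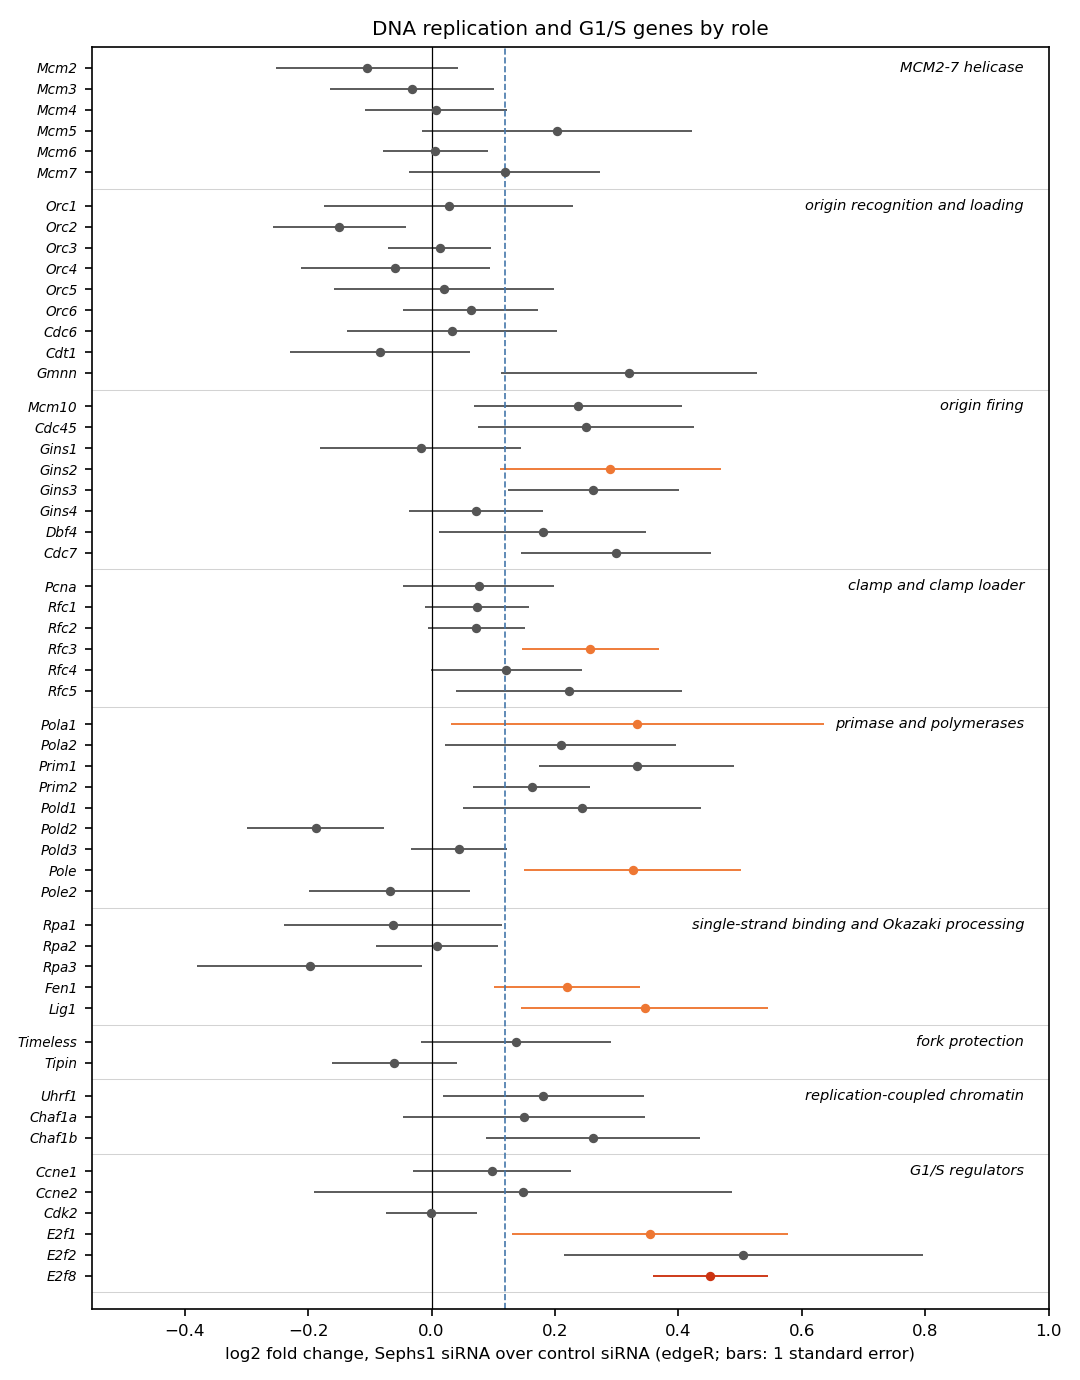
Log2 fold change of each of the 54 genes, *Sephs1* siRNA over control siRNA, on the x axis (points: edgeR estimates; bars: 1 standard error; 3 libraries in each group), with genes grouped by role. Red marks an unadjusted p under 0.05 (*E2f8*), orange a gene under 0.05 only with the replicate block (7 genes), and the dashed line the list's median of 0.12. The helicase and origin loading genes lie around 0, and most origin firing, polymerase and E2F genes lie to the right of it.

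No helicase gene passed the test in either fit. The MCM2-7 ring, which unwinds DNA ahead of the fork, had a median log2 fold change of 0.01 over its 6 genes. *Mcm2* was at 44.6, 44.9 and 64.3 CPM in the control replicates and at 47.3, 47.9 and 47.8 CPM after knockdown, with a log2 fold change of -0.10 (standard error 0.15). *Mcm3* was at 44.0, 43.9 and 59.5 CPM with control siRNA and at 45.1, 47.8 and 51.3 CPM with *Sephs1* siRNA (log2 fold change -0.03). In both genes the third control library was the highest of the 6 and the other two controls were the lowest. *Mcm5* was at 22.6, 25.3 and 40.2 CPM in the controls and at 30.0, 34.6 and 36.8 CPM after knockdown (log2 fold change 0.20, standard error 0.22). *Mcm7* was at 42.5, 42.1 and 61.4 CPM in the controls and at 49.7, 53.8 and 54.96 CPM after knockdown (log2 fold change 0.12, standard error 0.15). Here too the knockdown libraries lay above control replicates 1 and 2 and below control replicate 3. *Mcm4* and *Mcm6* had log2 fold changes of 0.01 each. Control replicate 3 held the highest value of all 6 MCM2-7 genes.

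Genes of origin recognition and helicase loading had a median log2 fold change of 0.02 over 9 genes, and none was called. *Orc2*, a core subunit of the origin recognition complex, was at 33.5, 31.1 and 29.4 CPM in the controls and at 28.7, 31.4 and 24.7 CPM after knockdown (log2 fold change -0.15, standard error 0.11), and the groups overlapped. Exons of *Nif3l1* on the other strand cover 29.8% of its exon bases. *Orc4* was at 29.4, 36.3 and 30.4 CPM against 26.4, 37.6 and 28.3 CPM (log2 fold change -0.06), and replicate 2 was the highest library of each group. *Orc6*, the smallest subunit, was at 16.2, 18.02 and 18.2 CPM against 17.2, 20.7 and 16.9 CPM (log2 fold change 0.06). *Cdt1*, the loading factor that brings MCM2-7 to origins, was at 15.8, 16.4 and 22.04 CPM against 15.8, 17.1 and 18.2 CPM (log2 fold change -0.08). Its inhibitor geminin, *Gmnn*, was at 5.14, 7.78 and 8.44 CPM in the controls and at 9.18, 9.89 and 7.62 CPM after knockdown. The log2 fold change of *Gmnn*, 0.32 (standard error 0.21), was the highest of this role, and the groups overlapped in replicate 3. The log2 fold changes of *Orc1*, *Orc3*, *Orc5* and *Cdc6* lay between 0.01 and 0.03.

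For the 8 origin firing genes the median log2 fold change was 0.24, and in pair 3 it was -0.06. None passed the test without the block, and with it *Gins2* did, 1 of 8 against 13.1% of all genes. *Cdc7*, the kinase that phosphorylates loaded MCM2-7, was at 4.76, 5.18 and 6.06 CPM in the controls and at 5.90, 7.54 and 6.25 CPM after knockdown (log2 fold change 0.30, standard error 0.15). *Gins2*, a GINS subunit, was at 9.92, 10.4 and 15.2 CPM against 13.03, 15.1 and 15.3 CPM (log2 fold change 0.29, standard error 0.18, unadjusted p = 0.0385 from edgeR with the block). Exons of *Gse1* on the opposite strand cover 67.3% of *Gins2*, and whether the counts used the strand is not given in the sources used here. *Gins3*, another GINS subunit, was at 4.12, 5.04 and 5.32 CPM against 5.69, 5.93 and 5.76 CPM (log2 fold change 0.26, standard error 0.14). For *Gins3* the groups did not overlap, while for *Cdc7* and *Gins2* the third control library lay above the lowest knockdown library. *Gins1* was at 3.49, 3.02 and 3.65 CPM against 3.22, 3.81 and 2.99 CPM (log2 fold change -0.02). The remaining genes of the role, *Mcm10*, *Cdc45*, *Gins4* and *Dbf4*, had log2 fold changes from 0.07 to 0.25, and none passed the test in either fit.

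The clamp PCNA and the RFC complex that places it on DNA had 6 positive log2 fold changes of 6, with a median of 0.10. *Rfc3* was at 15.0, 13.9 and 17.9 CPM in the controls and at 18.7, 19.1 and 18.2 CPM after knockdown. These groups did not overlap, and the log2 fold change was 0.26 (standard error 0.11, unadjusted p = 0.0546 from edgeR, and 0.0381 with the block). *Rfc5* was at 11.7, 11.5 and 17.3 CPM against 14.8, 17.9 and 14.6 CPM (log2 fold change 0.22, standard error 0.18). *Rfc4* was at 6.84, 6.24 and 7.2 CPM against 8.10, 6.94 and 7.01 CPM (log2 fold change 0.12). Both loader genes overlapped between the groups. *Pcna*, *Rfc1* and *Rfc2* had log2 fold changes between 0.07 and 0.08.

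Primase and the replicative polymerases had a median log2 fold change of 0.21 over 9 genes. *Prim1*, the catalytic primase subunit, was at 8.95, 9.87 and 12.1 CPM in the controls and at 14.5, 13.5 and 11.0 CPM after knockdown (log2 fold change 0.33, standard error 0.16). Its partner *Prim2* was at 16.95, 16.0 and 17.6 CPM against 20.1, 19.4 and 17.04 CPM (log2 fold change 0.16, standard error 0.09). In both primase genes the knockdown libraries 1 and 2 were the highest of the 6 and the third was not. *Pole*, the catalytic subunit of the leading strand polymerase epsilon, was at 14.4, 15.6 and 22.9 CPM against 21.8, 21.8 and 22.9 CPM. This amounted to a log2 fold change of 0.33 (standard error 0.18), with an unadjusted p of 0.0313 from edgeR with the block. *Pola1*, the catalytic subunit of polymerase alpha, had the same log2 fold change of 0.33 with a standard error of 0.30, since its controls spread from 9.77 to 23.2 CPM. The accessory subunits *Pold2* and *Pole2* had negative values, and *Pold3* did not. *Pold2* was at 16.1, 16.5 and 20.4 CPM against 15.9, 15.2 and 15.4 CPM, and *Pole2* was at 12.1, 11.5 and 11.4 CPM against 12.6, 11.6 and 9.28 CPM. *Pold2* was lower in every knockdown library than in every control (log2 fold change -0.19, standard error 0.11), by a margin of 16.1 against 15.9 CPM, and *Pole2* had a log2 fold change of -0.07. *Pola2*, *Pold1* and *Pold3* had log2 fold changes from 0.04 to 0.24.

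The genes of single-strand binding and of Okazaki fragment processing differed among themselves. *Lig1*, the ligase that seals Okazaki fragments, was at 21.7, 25.2 and 38.0 CPM in the controls and at 34.2, 36.1 and 37.7 CPM after knockdown (log2 fold change 0.35, standard error 0.20, unadjusted p = 0.0283 from edgeR with the block). *Fen1*, the flap nuclease that trims them, was at 22.8, 21.8 and 28.8 CPM against 27.5, 28.2 and 29.7 CPM (log2 fold change 0.22, standard error 0.12, unadjusted p = 0.0270 from edgeR with the block). In both, control replicates 1 and 2 lay below every knockdown library and control replicate 3 did not. The annotated antisense gene *Gm10143* covers 78.8% of the *Fen1* exon bases, so these reads may be shared. RPA coats single-stranded DNA. *Rpa1* was at 62.0, 63.1 and 76.8 CPM against 75.3, 48.2 and 70.0 CPM (log2 fold change -0.06, standard error 0.18). *Rpa3* was at 17.2, 16.0 and 13.7 CPM against 17.1, 13.03 and 10.7 CPM (log2 fold change -0.20, standard error 0.18). Replicate 2 of the knockdown was low for *Rpa1*, and replicate 3 was the lowest library of each group for *Rpa3*. *Rpa2* had a log2 fold change of 0.01. The role's median was 0.01.

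The fork protection pair gave opposite signs. *Timeless* was at 8.66, 8.24 and 11.7 CPM in the controls and at 9.82, 10.9 and 10.7 CPM after knockdown (log2 fold change 0.14, standard error 0.15). *Tipin*, its binding partner, was at 29.7, 31.5 and 33.6 CPM against 31.6, 32.7 and 26.6 CPM (log2 fold change -0.06, standard error 0.10). Neither passed the test. Of the chromatin genes that act behind the fork, *Uhrf1*, which reads hemimethylated DNA for the maintenance methyltransferase, was at 22.2, 22.8 and 33.5 CPM against 29.0, 30.7 and 29.3 CPM (log2 fold change 0.18, standard error 0.16). *Chaf1a* and *Chaf1b* encode subunits of CAF-1, which places histones on new DNA. *Chaf1a* was at 14.0, 12.9 and 21.6 CPM against 16.9, 18.7 and 18.2 CPM (log2 fold change 0.15, standard error 0.20), and exons of *Ubxn6* on the opposite strand cover 52.5% of it. *Chaf1b* was at 9.86, 10.6 and 14.7 CPM against 13.2, 15.8 and 13.1 CPM (log2 fold change 0.26, standard error 0.17). All 3 chromatin genes were lowest in control replicates 1 and 2, and none passed the test in either fit.

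Among the G1/S regulators, *E2f8* separated most clearly. *E2f8* (chromosome 7 from 48866429 to 48882073) was at 21.9, 24.9 and 23.5 CPM in the controls and at 29.7, 35.05 and 31.5 CPM after knockdown. Every knockdown library lay above every control, and the ratio was alike in the replicate pairs, with log2 values of 0.44, 0.49 and 0.42. The mean was 23.4 ± 1.52 CPM (SD, n = 3) in the controls and 32.1 ± 2.73 CPM (SD, n = 3) after knockdown. By edgeR the log2 fold change was 0.45 (standard error 0.09), with an unadjusted p of 0.0020 and an adjusted p of 0.373. The unadjusted p stayed under 0.05 in each of 17 alternative settings, with log2 fold changes from 0.38 to 0.50 and adjusted p-values from 0.0094 to 0.951. A processed transcript annotated on the other strand, *Gm2788*, covers 11.2% of its exon bases.

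The activators of the E2F family were less even. *E2f1* was at 13.1, 18.3 and 24.8 CPM in the controls and at 21.7, 23.5 and 26.7 CPM after knockdown (log2 fold change 0.35, standard error 0.22, unadjusted p = 0.0198 from edgeR with the block). Each knockdown library was above the control of its own number, but the groups overlapped. *E2f2*, the scarcest gene of the list, was at 0.59, 0.80 and 0.69 CPM against 1.13, 0.67 and 1.18 CPM (log2 fold change 0.51, standard error 0.29). Knockdown replicate 2 of *E2f2* lay below both of its neighbours and below 2 of the controls. *Cdk2*, the kinase partner of cyclin E, was at 24.0, 22.9 and 25.1 CPM against 23.7, 24.6 and 23.6 CPM, with a log2 fold change of 0.00. *Ccne1* and *Ccne2*, the cyclin E genes, had log2 fold changes of 0.10 and 0.15, and the controls of *Ccne2* spread from 9.54 to 21.4 CPM.

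**Figure D2:**
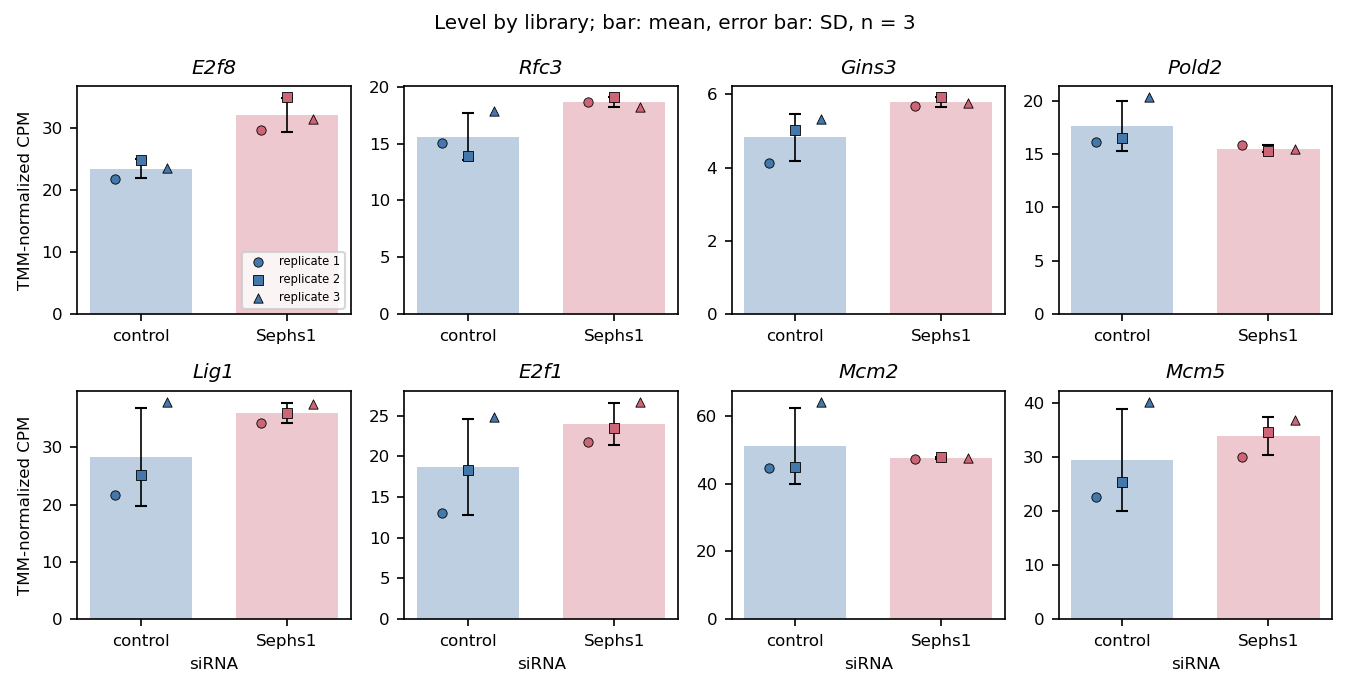
TMM-normalized CPM of 8 genes (y axis) in the control and *Sephs1* siRNA groups (x axis), with bars at the mean, error bars at the SD over 3 libraries and a marker for each replicate number. *E2f8*, *Rfc3* and *Gins3* have every knockdown library above every control and *Pold2* every one below, while for *Lig1*, *E2f1*, *Mcm2* and *Mcm5* the third control (triangle) lies within or above the knockdown libraries.

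Groups that did not overlap were few in the list. The knockdown libraries lay above all controls for *Gins3*, *Rfc3* and *E2f8*, 3 of 54, against 7.8% of all genes tested. They lay below all controls for *Pold2*, 1 of 54, against 7.09% of all genes. With 3 libraries against 3, an exact 2-sided permutation test of one gene cannot give a p below 0.1, so the separation of a single gene is a description.

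The controls spread more than the knockdown libraries. The median coefficient of variation over the 54 genes was 15.9% among the controls and 8.78% among the knockdown libraries, while over all genes tested it was 11.2% and 10.3%. Summed over the list, the level was 1129, 1170 and 1420 CPM in control replicates 1, 2 and 3 and 1288, 1367 and 1293 CPM after knockdown. Control replicate 3 thus had the highest sum of the 6 libraries and control replicate 1 the lowest. As deviations from each gene's own mean over the libraries, the list's medians on the log2 scale were -0.19, -0.13 and 0.14 in the controls and 0.03, 0.15 and 0.01 after knockdown. Of the 54 genes, 23 (42.6%) were highest in control replicate 3, as were 16.7% of all genes. Control replicate 1 was lowest for 27 (50.0%), as for 22.4% of all genes.

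**Figure D3:**
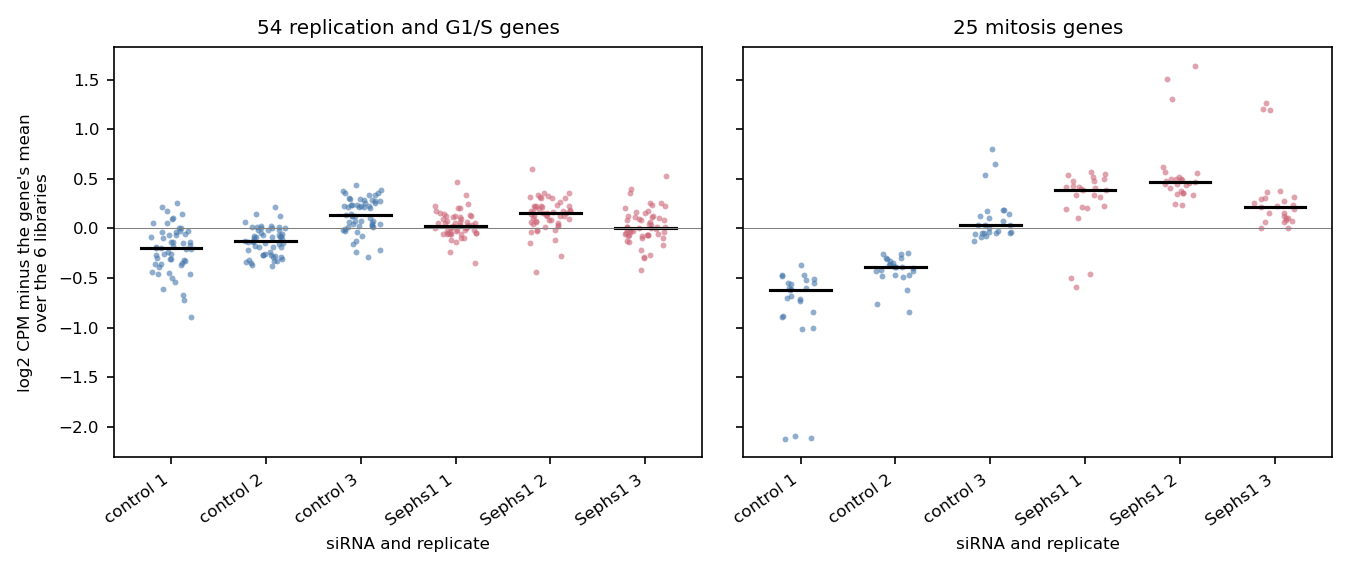
Log2 CPM of each gene minus its own mean over the 6 libraries (y axis), by library (x axis), for the 54 replication and G1/S genes and for 25 mitosis genes; black lines are medians. In the replication list control replicate 3 (median 0.14) lies near the knockdown libraries, and control replicates 1 and 2 (medians -0.19 and -0.13) lie below.

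Within replicate numbers the list moved one way in 2 pairs and the other way in the third. The median log2 ratio of knockdown over control was 0.24 in pair 1, 0.30 in pair 2 and -0.14 in pair 3, where all genes tested had 0.00, 0.02 and 0.00. Higher in the knockdown library were 44, 50 and 11 of the 54 genes, and 50.0%, 53.0% and 49.4% of all genes. The combination of higher in pairs 1 and 2 and lower in pair 3, a pattern chosen after its values were seen, held for 34 of the 54 (63.0%) and for 12.0% of all genes. It included all 6 MCM2-7 genes and all 3 chromatin genes. *E2f8* was 1 of 8 genes that were higher in all 3 pairs (14.8% of the list, against 24.2% of all genes). Lower in all 3 pairs were 2 of the 54, and 3350 of the 14223 genes tested. Pair medians by role ran from 0.00 for origin loading to 0.41 for the G1/S regulators in pair 1 and from -0.23 for fork protection to 0.01 for the G1/S regulators in pair 3.

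**Figure D4:**
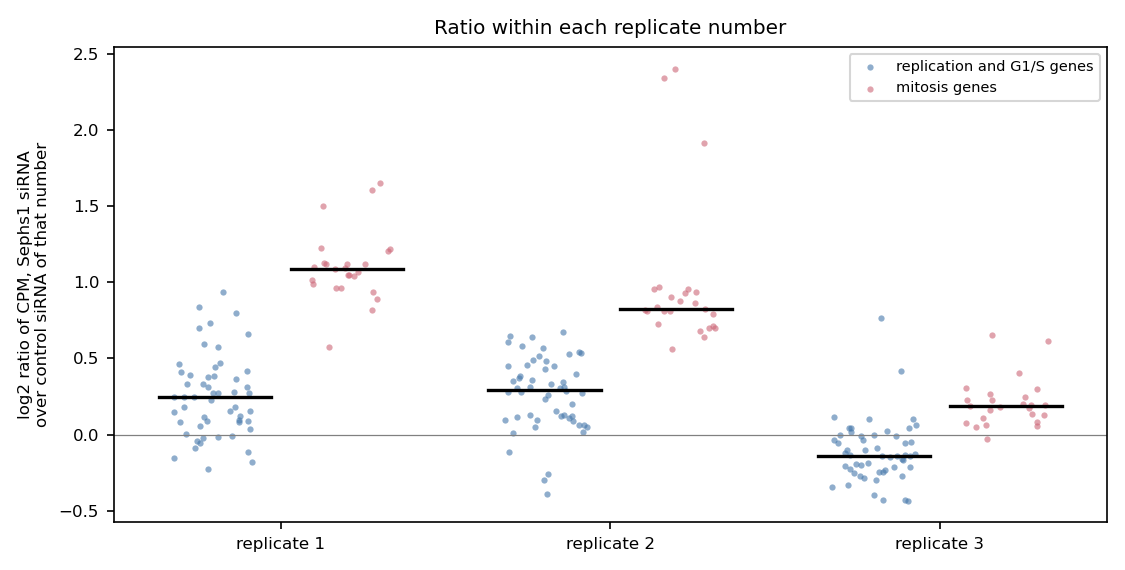
Log2 ratio of CPM in the *Sephs1* siRNA library over the control library of the same replicate number (y axis) in pairs 1, 2 and 3 (x axis); each point is 1 gene and black lines are medians. The replication and G1/S genes have medians of 0.24, 0.30 and -0.14, and the 25 mitosis genes have medians of 1.09, 0.82 and 0.19.

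Leaving pairs out of the paired fit, an alternative chosen after seeing the data, moved the calls. Without pair 3, 28 of the 54 genes were higher at an unadjusted p under 0.05, against 14.6% of all genes. At an adjusted p under 0.05, edgeR called 17 higher, against 5.49% of all genes. They were *Mcm5*, *Mcm7*, *Cdc45*, *Gins2*, *Rfc3*, *Rfc5*, *Pola1*, *Prim1*, *Pold1*, *Pole*, *Fen1*, *Lig1*, *Uhrf1*, *Chaf1b*, *Ccne2*, *E2f1* and *E2f8*. *Lig1* had a log2 fold change of 0.59 and an adjusted p of 0.0073 there. The median of the list was then 0.27. Without pair 1, *E2f8* was the 1 gene higher at an unadjusted p under 0.05 (7.17% of all genes), and *Pold2*, *Rpa1* and *Rpa3* were lower (7.18%). Without pair 2, *E2f1*, *E2f2* and *E2f8* were higher (8.42%) and *Orc2* was lower (7.11%). *E2f8* was the one gene of the list called higher in each of these fits. Leaving out control replicate 3 alone, without the block, gave 20 genes higher at an unadjusted p under 0.05, against 6.86% of all genes, a median of 0.23, and no call at an adjusted p under 0.05.

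Markers of cell type were read beside these results, because replicate 3 of both groups differed from the others. *Col2a1*, the main cartilage collagen, was between 64279 and 89890 CPM and *Acan* between 6796 and 11614 CPM, and 11 of 12 chondrocyte markers were in the table. The summed chondrocyte markers were at 120775, 131049 and 98118 CPM in the controls and at 108911, 115232 and 91995 CPM after knockdown, lowest in replicate 3 of each group. The summed fibroblast markers were at 23570, 20274 and 26480 CPM and at 20746, 18946 and 22849 CPM, highest in replicate 3 of each group. *Pdgfra*, a fibroblast marker, was at 175 and 204 CPM in replicate 3 of the controls and of the knockdown and between 78.6 and 119 CPM elsewhere. None of these chondrocyte and fibroblast markers was called at an unadjusted p under 0.05 without the block. With it, 1 of 11 chondrocyte markers was higher and 6 were lower, and 2 of 10 fibroblast markers were higher and 5 were lower. Of all genes, 13.1% were higher and 11.2% were lower with the block. *Col9a1*, *Col1a2* and *Postn* were lower at an adjusted p under 0.05 in that fit. Of 5 osteoblast markers tested, 2 were lower at an unadjusted p under 0.05 from edgeR, *Alpl* and *Phex*, against 3.63% of all genes. None was higher at that threshold (4.98% of all genes), though 2 had positive log2 fold changes, of up to 1.04. With the block 1 was higher and 2 were lower. The summed level of the list was between 27.0 and 43.5 CPM in the controls and between 12.5 and 30.0 CPM after knockdown. *Alpl*, alkaline phosphatase, was at 26.6, 27.2 and 16.6 CPM in the controls and at 12.9, 9.77 and 6.55 CPM after knockdown. Its groups did not overlap, and the log2 fold change was -1.27 (standard error 0.29), with an adjusted p of 0.392 from edgeR, 0.0183 with the block and 0.0018 from DESeq2. The part of these markers in the result was not tested. The summed level of 11 macrophage and leukocyte markers was between 8.13 and 11.1 CPM, with *Itgam*, *C1qa* and *Cd3e* at 0 in every library. In bulk RNA a different number of cells of a type, or of cells in the cycle, and a different amount of RNA per cell cannot be told apart.

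Depth was high for most of these genes and low for *E2f2*. The libraries held between 58214060 and 80887889 reads, and the genes of the list took between 0.108% and 0.143% of them. No gene of the list had a 0, and the smallest count was 33 reads, for *E2f2*. On the length-scaled FPKM values, members had a median level of 7.97, against 5.73 for all genes tested. *Pcna* was the highest at a mean of 54.3 FPKM over the 6 libraries, followed by *Mcm6* at 23.1 and *Rpa3* at 22.5 FPKM. The lowest were *E2f2* at 0.18, *Cdc6* at 1.59 and *Orc1* at 1.66 FPKM. The helicase subunits *Mcm2* to *Mcm7* lay between 9.09 and 23.1 FPKM, and the 6 subunits of the origin recognition complex between 1.66 and 10.7 FPKM.

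Other genes of the pathway were read from lists written with earlier results of these data known. Of 30 other replication genes, 3 passed an unadjusted p under 0.05 from edgeR (8 with the block, where 13.1% of all genes were higher), each of them higher, against 4.98% of all genes, and the median log2 fold change was 0.14. *Ticrr*, which brings CDC45 to origins, was at 6.62, 6.91 and 8.58 CPM in the controls and at 9.32, 10.7 and 11.2 CPM after knockdown (log2 fold change 0.50, standard error 0.14). The histone chaperone *Asf1b* was at 7.82, 9.50 and 12.2 CPM against 14.7, 13.6 and 12.9 CPM (log2 fold change 0.48, standard error 0.17). The groups did not overlap for these genes or for *Mcm8*, the third. Of 9 genes of nucleotide supply, 3 were higher (4.98% of all genes) and none was lower (3.63%), with a median of 0.18. With the block 3 were higher and none was lower, against 13.1% and 11.2% of all genes. *Tk1*, thymidine kinase, was at 14.0, 14.2 and 24.9 CPM against 26.9, 27.6 and 27.3 CPM (log2 fold change 0.62, standard error 0.23). *Rrm1*, the large subunit of ribonucleotide reductase, was at 71.9, 73.8 and 94.4 CPM against 113, 109 and 93.3 CPM (log2 fold change 0.39, standard error 0.13), and its groups overlapped in replicate 3.

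Of 24 other genes of G1/S control, at an unadjusted p under 0.05, 2 were higher (4.98% of all genes) and none was lower (3.63%), with a median log2 fold change of 0.04. With the block 6 were higher and 1 was lower, against 13.1% and 11.2% of all genes. *Ccna2*, cyclin A, was at 48.0, 55.6 and 71.6 CPM in the controls and at 94.7, 94.4 and 77.1 CPM after knockdown (log2 fold change 0.60, standard error 0.16), with no overlap. *E2f7*, the other atypical E2F, was at 7.38, 7.997 and 11.1 CPM against 10.9, 13.5 and 12.4 CPM (log2 fold change 0.48, standard error 0.18). Its lowest knockdown library lay just below control replicate 3. Of 25 mitosis genes, 21 were higher at an unadjusted p under 0.05, against 4.98% of all genes, and none was lower. Their median log2 fold change was 0.69. With the block all 25 were higher, against 13.1% of all genes. *Bub1b*, of the spindle checkpoint, was at 20.1, 22.8 and 28.9 CPM against 39.2, 37.6 and 35.6 CPM (log2 fold change 0.65, standard error 0.14). *Prc1*, of cytokinesis, was at 64.0, 72.9 and 94.0 CPM against 127, 136 and 111 CPM (log2 fold change 0.70, standard error 0.15). The groups did not overlap, on the higher side, for 20 of the 25, against 7.8% of all genes. Of the 25, 24 were higher in all 3 pairs, against 24.2% of all genes, while 8 of the 54 replication genes were. The difference between these lists was not tested. None of the genes of these 4 lists reached an adjusted p under 0.05 by edgeR, with or without the block. DESeq2 called 11 of the 25 mitosis genes and 1 gene of the G1/S list, *Ccna2* (adjusted p = 0.0472), all higher, against 1.03% of all genes. It called none of the other replication or nucleotide supply genes. Its adjusted p was 0.0070 for *Bub1b* and 0.0064 for *Prc1*, below that of *E2f8*.

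Motifs differed between the mitosis and replication windows. E2F letters were in 1 of 22 matched mitosis genes (4.55%), CCAAT in 18 (81.8%) and the CHR letters in 15 (68.2%). Among the other replication genes E2F letters were in 9 of 25 (36.0%), among other G1/S genes in 5 of 17 (29.4%) and in none of 8 nucleotide supply genes. The *E2f8* window, with CCAAT and CHR letters and no E2F letters, thus held both of the motifs that were common in mitosis windows. So did the windows of *Mcm2* and *Cdc45* in the replication list. *Pold2* held both over its 2 windows, and they need not lie in the same one. *Gins3* held both motifs and E2F letters as well, in 1 window. *E2f2* held all of these over its 2 windows, where again they need not lie in the same one. The motif content of a window is a description, and its relation to the levels was not tested.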

How the data were processed

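Per the study's methods, reads of stranded poly(A) libraries were aligned by the authors to mm10 with HISAT2 2.1.0 and quantified with StringTie 1.3.4d. Raw counts of reads for every gene were deposited by the authors, beside FPKM values that correct them for transcript length and sequencing depth. The strand setting is not given in the sources used here.

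A gene needed at least 1 read in each library to be tested, a filter taken from the methods. The 2 groups of 3 biological replicates were compared with edgeR 4.0.16 in R 4.3.3 (TMM scaling, quasi-likelihood test, Benjamini-Hochberg adjustment over 14223 genes, fitted on all 6 libraries without a block). CPM values are TMM-normalized. The fits were tested on simulated data. Alternatives were other scalings and filters, the replicate number as a block, DESeq2 1.42.0, limma 3.58.1 on the log2 of FPKM with a pseudocount of 1 or 0.1, and each library left out. Fits with the block and without each pair were added after seeing the data.

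To check the pairing, each library's deviation from its group mean was correlated with that of the library of the same number in the other group, over 14223 genes (r = 0.65, 0.34 and 0.61 for numbers 1, 2 and 3). All 3 exceeded 0.1, and the replicates were treated as pairs, although the labels do not say what a number marks. Replicates of a group differed by more than sampling noise.

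The genes and lists were chosen with earlier results of these data known. Values in every library are given for up to 3 genes of each of 9 roles with the smallest unadjusted p, every gene with a negative log2 fold change and every gene with a mean under 1 CPM, and outside the list for *Sephs1* and at most 2 genes a direction from every pathway list. The marker genes named, and the few values given for *Pola1* and *Ccne2*, were chosen after their values were seen. Promoter windows came from RefSeq (GRCm38.p6) and exon overlaps from GENCODE M21.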

Additional observations from a re-analysis of the deposited data

How the results depend on the processing

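The replicate block and replicate 3 changed the counts of calls more than the scaling or the filter did. For all genes, 2 were called at an adjusted p under 0.05 by edgeR, 234 with the replicate block, 211 with DESeq2, 0 and 1 with limma on log2(FPKM + 1) and log2(FPKM + 0.1), and 0 to 3 with 1 library left out. The blocked fit gave 16, 81 and 1187 after dropping pair 1, 2 or 3. Of the replication and G1/S genes, 0 were called at an adjusted p under 0.05, 1 with the block, 1 with DESeq2 and 17 when the blocked fit lacked pair 3. At an unadjusted p under 0.05, 1 was higher, 8 with the block, 2 with upper-quartile scaling, 4 with each FPKM fit, 1 to 20 with 1 library left out (20 without control replicate 3), and 3 and 28 when the blocked fit lacked pair 2 or 3. None was lower, 0 to 1 with 1 library left out, and 3 and 1 when the blocked fit lacked pair 1 or 2. Of all genes at that threshold, 4.98% were higher by edgeR, 13.1% with the block and 6.86% without control replicate 3. When the blocked fit lacked pair 1, 2 or 3, 7.17%, 8.42% and 14.6% were. Lower were 3.63%, 11.2% with the block, and 7.18% and 7.11% without pair 1 or 2. In either direction, 1226 genes passed, 1151 with upper-quartile scaling, 1309 and 1292 on FPKM and 733 to 1606 with 1 library left out. The list's median log2 fold change was 0.12 and lay between 0.03 and 0.27 over all alternatives.

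The counts of calls below are at an unadjusted p under 0.05, and the shares of all genes given above apply to them. Of the other replication genes 3 were higher, 8 with the block and 15 when the blocked fit lacked pair 3. With 1 library left out, 1 to 9 of these were. Of the nucleotide supply genes 3 were higher, 0 to 4 with 1 library left out, and 1, 1 and 6 when the blocked fit lacked pair 1, 2 or 3. Of the other G1/S genes 2 were higher, 6 with the block, 4 with each FPKM fit, 1 to 4 with 1 library left out, and 5 and 6 when the blocked fit lacked pair 2 or 3. None of these was lower, against 1 with the block and 2 when the blocked fit lacked pair 3. The mitosis counts ran from 15 to 25. Groups did not overlap for 3 replication genes on the higher side, 5 with either pseudocount on FPKM and 3 to 27 with 1 library left out (27 without control replicate 3). On the lower side it was 1, 0 with either pseudocount on FPKM and 1 to 3 with 1 library left out. Of all genes tested, with all 6 libraries, 7.8% did not overlap on the higher side and 7.09% on the lower. No share of all genes was counted for the alternatives, so their counts cannot be read as a result about the list. Of 578 values of the 34 genes with full values, 489 kept their sign and side of the threshold, 55 passed it newly and 34 turned sign with no call in either fit. The causes of these shifts were not tested. With 3 libraries in a group, the list's median log2 fold change of 0.12 was smaller than the median standard error of a gene, 0.15. That standard error is from the fit without the block and takes in differences between replicate numbers.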
